A study of Mus musculus with 18 samples.

Results

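The 34 genes described here belong to the unfolded protein response and to protein folding in the endoplasmic reticulum (ER). They were taken by name from a fixed list. All 34 were found among the 24578 genes summed from the deposited transcripts, and all 34 were among the 13366 genes that passed the filter on low counts. By role they are 11 chaperones and cofactors, 5 protein disulfide isomerases, 6 sensors and transcription factors, 7 genes of ER-associated degradation (ERAD), 3 of the translocon, and 2 that feed back on the PERK branch.

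RNA was sequenced from conventional dendritic cells (cDC), the antigen-presenting cells of the spleen, of C57BL/6 mice. Cells were wild type (WT) or deficient for ADAM10 (KO), a protease of the cell surface whose known substrates include Notch receptors. The labels do not give the strategy of its deletion. Living CD11c+MHCII+ cells were sorted by CD4 and CD8. The CD8+ fraction is cDC1, and the CD4+ and the CD4-CD8- fractions are both cDC2, which gives 6 groups of 3 libraries (18 in all). No age or treatment is given for any group, and nothing in the labels says whether libraries of a group came from separate animals or from pooled animals, so the spread behind each p-value is that of libraries and may be technical.

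The ER receives newly made secreted and membrane proteins through the Sec61 channel. Chaperones and disulfide isomerases fold them there, and ERAD sends misfolded ones back to the cytosol for destruction. When unfolded proteins build up, 3 sensors in the ER membrane respond. IRE1 (Ern1) splices the RNA of Xbp1, PERK (Eif2ak3) slows translation and raises the translation of Atf4, and ATF6 is cut to release a transcription factor. In dendritic cells, IRE1 and XBP1 are known to be active without added stress, above all in cDC1.

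Sequenced depth ran from 12358884 to 19557469 estimated counts per library. Adam10 itself stood at 28.69 to 47.44 CPM (read counts relative to the library's TMM-scaled total) in the 9 KO libraries and at 56.97 to 138.4 CPM in the 9 WT libraries, with no overlap. The WT library numbered 3 was the highest of its group for Adam10 in each population (129.6, 138.4 and 98.99 CPM). The same 3 libraries were low for the 16 chaperones and isomerases, of which 0 of 16, 3 of 16 and 1 of 16 lay above their group mean in CD4+, CD4-CD8- and CD8+ cells. Results are therefore also given without these 3 libraries. Cd4 was 400.6 to 476.4 CPM in the CD4+ groups, at most 6.927 CPM elsewhere, and Cd8a was 520.8 to 1139 CPM in the CD8+ groups and at most 6.405 CPM elsewhere.

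Promoter sequences show what part of the members have in common. The ER stress response element (ERSE) is the classic site through which ATF6 and XBP1 act. It was searched as CCAAT and CCACG with 9 bases between them, on both strands, in RefSeq windows (GRCm38.p6) from 250 bases before to 50 bases after each gene's start. Windows were found for 29 members, not for Atf6, Manf, Hyou1, Derl1 and Sec61a1. An ERSE was present in 9 of the 29 (31.034%), against 37 of 27025 genes (0.137%) with the same window. The matches are printed below in the orientation of the gene, with 5 bases on each side and the motif in capitals. The first set, with CCAAT first, holds Hspa5 (chr2:34772020-34772048, plus strand), the distal Hsp90b1 site (chr10:86705633-86705661, minus), Canx (chr11:50325795-50325823, minus), Dnajc3 (chr14:118937822-118937850, plus), Pdia6 (chr12:17266486-17266514, plus) and Syvn1 (chr19:6046527-6046555, plus).
Hspa5: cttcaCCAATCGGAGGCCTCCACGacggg
Hsp90b1, distal: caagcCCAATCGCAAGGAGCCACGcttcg
Canx: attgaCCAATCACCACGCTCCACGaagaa
Dnajc3: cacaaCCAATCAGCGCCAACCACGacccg
Pdia6: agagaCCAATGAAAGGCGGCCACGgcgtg
Syvn1: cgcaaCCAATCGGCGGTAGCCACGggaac
The second set carries the motif on the opposite strand, so that it reads CGTGG and ATTGG. It holds the proximal Hsp90b1 site (chr10:86705528-86705556, minus), Calr (chr8:84847070-84847098, minus), Creld2 (chr15:88819515-88819543, plus) and Derl3 (chr10:75893237-75893265, plus).
Hsp90b1, proximal: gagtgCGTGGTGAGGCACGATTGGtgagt
Calr: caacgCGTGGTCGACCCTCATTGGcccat
Creld2: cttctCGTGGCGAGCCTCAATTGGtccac
Derl3: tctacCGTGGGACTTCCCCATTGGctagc

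The first base of these motifs lay between 44 bases (Syvn1) and 212 bases (the distal Hsp90b1 site) before the start, and Hsp90b1 was the member with a pair of them. A shorter variant, ERSE-II (ATTGG and CCACG with 1 base between them), was in 2 of the 29 windows (6.897%) and in 12 of 27025 genes (0.044%). The core of the XBP1-type element (TGACGTGG) was in 0 of the 29 windows and in 193 genes overall (0.714%). The ATF4-type element searched as TTGCATCA was in 1 member, Herpud1 (3.448%), and in 279 genes overall (1.032%). Herpud1 is also 1 of the pair with ERSE-II, so its window holds the following stretches (chr8:94386312-94386329 and chr8:94386372-94386392, plus strand).
Herpud1, ATF4-type: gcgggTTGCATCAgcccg
Herpud1, ERSE-II: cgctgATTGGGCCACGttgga
These are matches of letters, not measured binding.

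**Figure D1:**
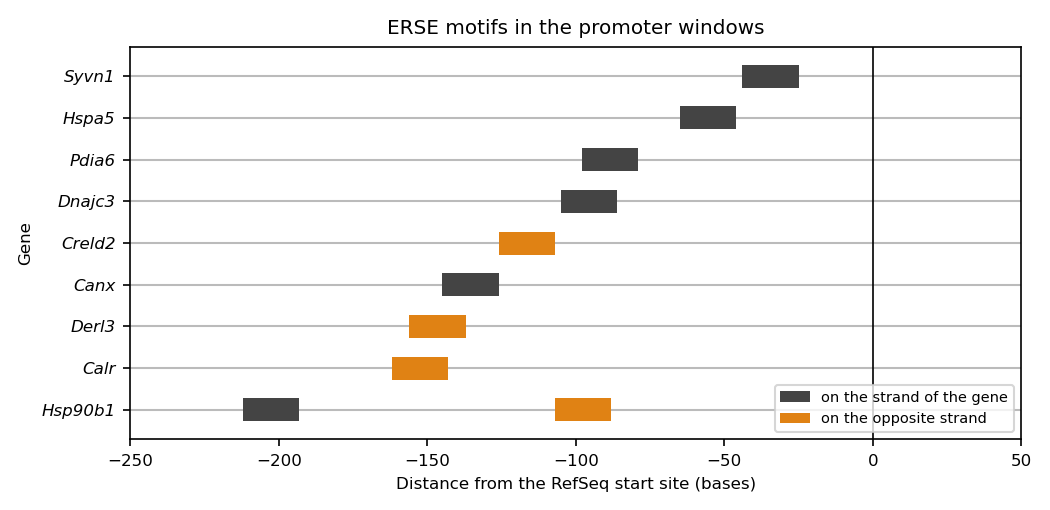
Positions of the ERSE matches in the promoter windows of the 9 members that hold one; the x axis is the distance from the RefSeq start site in bases, and each row is a gene. The matches begin between 44 and 212 bases before the start, and Hsp90b1 has a pair.

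In WT cells, the folding machinery was set high in CD8+ cDC1 and low in both cDC2 populations. Relative to CD8+ cells, 23 of the 34 members were lower and 4 higher in CD4+ cells (23.0% and 22.7% of all genes tested), with a median log2 difference of -0.748 over the members and 0 over all genes (edgeR's quasi-likelihood test, Benjamini-Hochberg adjustment over all genes). In CD4-CD8- cells 25 were lower and 2 higher (21.0% and 21.9% of all genes), with a median of -0.675. In bulk RNA of a sorted population, fewer cells with a high level and less RNA per cell cannot be told apart. Chaperones and isomerases made up most of the difference: 10 of 11 chaperones and 5 of 5 isomerases were lower in CD4+ than in CD8+ cells, and 11 of 11 and 5 of 5 in CD4-CD8- cells. Leaving out the 3 WT libraries numbered 3 gave 24 and 22 members called in place of 27 and 27.

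Hspa5 encodes BiP, the main ER chaperone and the inhibitor of the 3 sensors (chr2:34771970-34777547, GRCm38). It stood at 1354, 1338 and 1110 CPM in the 3 WT CD8+ libraries, at 665.2, 637.9 and 595.5 CPM in WT CD4+ and at 661.4, 616.2 and 616.3 CPM in WT CD4-CD8- libraries. The lowest CD8+ library was well above the highest cDC2 library, and the cDC2 groups overlapped each other. Its log2 difference from CD8+ cells was -1.002 ± 0.103 (SE) in CD4+ cells (edgeR adjusted p 5.15e-07) and -1.006 ± 0.103 in CD4-CD8- cells (edgeR adjusted p 6.78e-07). Per length, Hspa5 (555 ± 49.4 TPM, SD, n = 3), Hsp90b1 (560.4 ± 74.7 TPM) and Pdia3 (518.3 ± 54.2 TPM) had levels in WT CD8+ cells that did not differ beyond their spread. Calr was next of the members compared, at 431.8 ± 62.5 TPM. Canx and Ddit3 were left out of this comparison, since short transcripts took most of their TPM.

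Pdia5, a less studied disulfide isomerase (chr16:35397312-35490873), showed the widest spread between populations of any member. WT CD8+ libraries had 180.1, 182 and 155 CPM, WT CD4-CD8- libraries 16.5, 13.45 and 16.83 CPM, and WT CD4+ libraries 2.78, 2.182 and 1.869 CPM. The 3 populations formed 3 separate steps, of which the middle 1 was 9.05% and the lowest 1.32% of the CD8+ mean. The log2 difference was -6.234 ± 0.186 for CD4+ and -3.463 ± 0.152 for CD4-CD8- against CD8+ cells, and -2.771 ± 0.19 for CD4+ against CD4-CD8- cells (edgeR adjusted p 4.41e-13, 5.89e-11 and 7.56e-08). Markers of cDC1 had unequal shares of the CD8+ level in WT CD4-CD8- cells. Xcr1 was at 5.27%, Tlr3 at 10.2%, Cadm1 at 13.6%, Clec9a at 14.4% and Irf8 at 15.6%. Cd8a was lower, at 0.556%. Wdfy4 (group means of 1030 against 3020 CPM) and Batf3 (46.9 against 73.9 CPM) differed less between these populations. The part of cDC1 cells in the Pdia5 value was not tested. Derl3, an ERAD gene, was the next most unequal: 34 to 71 counts per library in WT CD8+, 10 to 18 in WT CD4-CD8- and 5 to 12 in WT CD4+ cells, with log2 differences from CD8+ cells of -2.055 ± 0.419 and -2.854 ± 0.44 in CD4-CD8- and CD4+ cells (edgeR adjusted p 0.000797 and 4.82e-05).

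The members that were higher in cDC2 than in CD8+ cells came from other roles. Ppp1r15a, the phosphatase cofactor that restores translation after PERK activity, was 219, 145.6 and 159.4 CPM in WT CD4+ and 74.33, 51.1 and 61.66 CPM in WT CD8+ libraries, a log2 difference of 1.485 ± 0.219 (edgeR adjusted p 3.11e-05). Immediate early genes, which rise during tissue digestion, moved the same way: 13 of 14 were higher in WT CD4+ than CD8+ cells, beside 22.7% of all genes. Their summed levels were 8080 to 11290 CPM and 2856 to 3919 CPM, and their part in the Ppp1r15a value was not tested. Atf6 (0.369 ± 0.095, edgeR adjusted p 0.0043), the stress factor Ddit3 (0.634 ± 0.196, edgeR adjusted p 0.0141) and the translocon subunit Ssr1 (0.357 ± 0.08, edgeR adjusted p 0.00149) were the others higher in CD4+ cells. The sensor transcripts differed little in size: Ern1 was -0.317 ± 0.083 and Xbp1 -0.312 ± 0.108 in CD4+ against CD8+ cells (edgeR adjusted p 0.00475 and 0.0261), while Eif2ak3 (-0.053 ± 0.1) and Atf4 (-0.263 ± 0.119) did not pass. Trib3, an ATF4 target, was called lower in CD4+ cells but rested on 1 to 9 counts per library against 8 to 20. Between the WT cDC2 populations, 2 members were higher (Herpud1, Ssr1) and 2 lower (Pdia5, Dnajc3) in CD4+ cells, against 7.12% and 9.64% of all genes. On TPM the split was 4 lower and 0 higher, and of the 4 calls on counts Pdia5 alone held in each of the 15 alternative analyses.

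**Figure D2:**
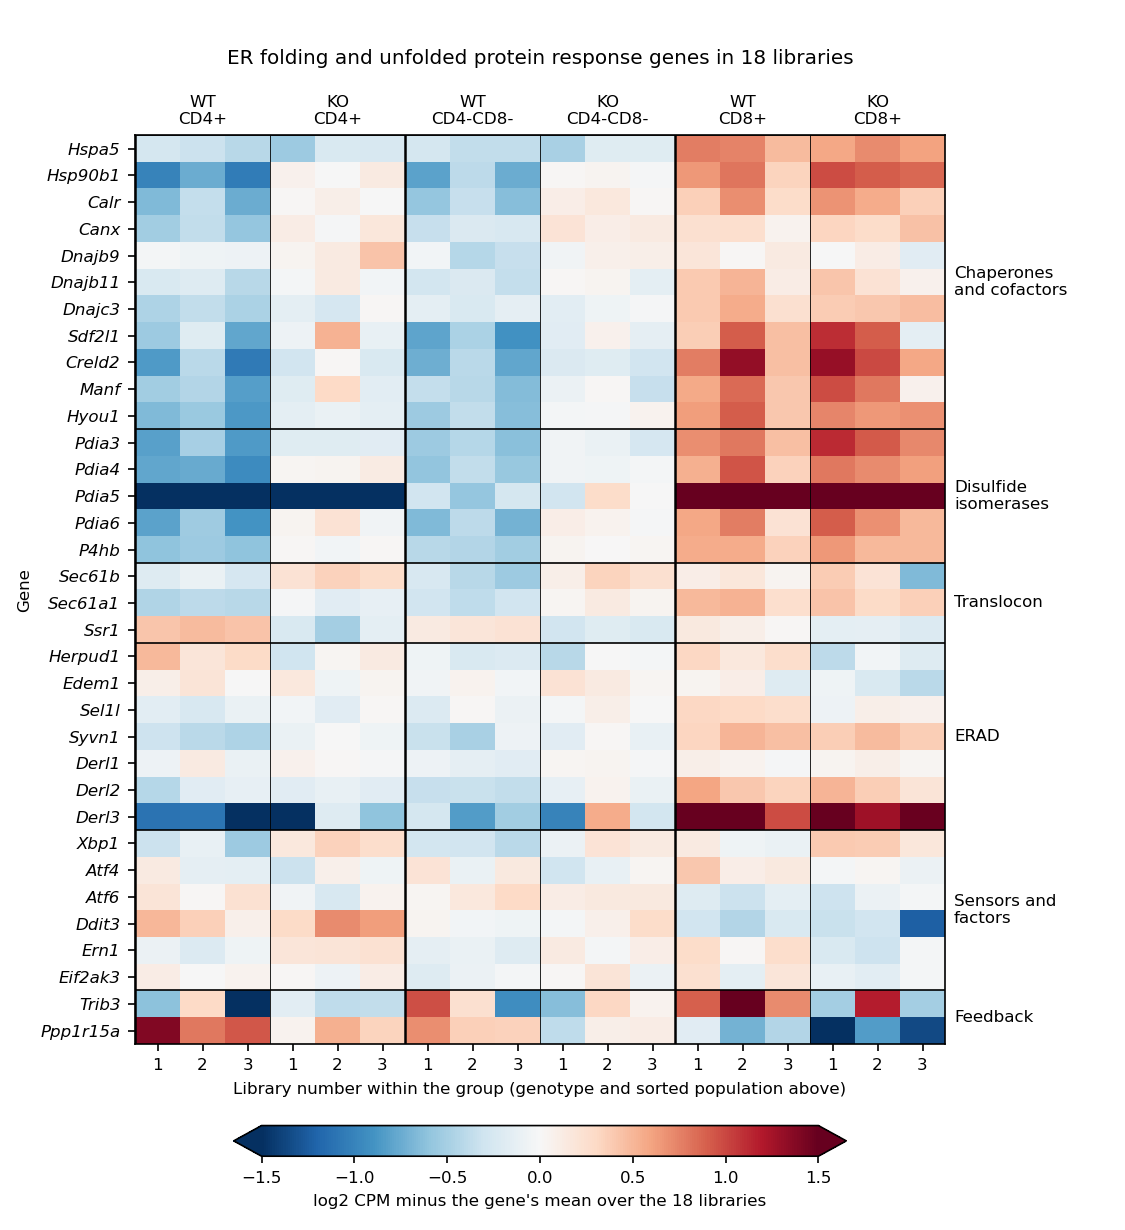
Level of each of the 34 members (rows, by role) in each of the 18 libraries (columns, by group), as log2 CPM minus the gene's mean over all libraries, colours limited to 1.5 in either direction. Most chaperones and isomerases are high in the 6 CD8+ libraries, and in cDC2 they are higher in KO than in WT libraries.

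Loss of ADAM10 was accompanied by higher levels of the folding machinery in both cDC2 populations. In CD4+ cells 17 members rose and 3 fell (18.5% and 16.6% of all genes), with a median log2 change of 0.32 over the members and 0.016 over all genes. In CD4-CD8- cells 12 rose and 1 fell (14.6% and 11.4% of all genes), with a median of 0.295 against 0.021. In CD8+ cells 0 rose and 5 fell (7.03% and 8.66% of all genes), with a median of -0.032 against 0.003; by direction, 3 were higher at an unadjusted p under 0.05, and DESeq2 called 1 higher. Without the 3 WT libraries numbered 3, the counts were 13 up and 2 down in CD4+, 10 up and 1 down in CD4-CD8- cells, and 1 in all in CD8+ cells. On TPM as deposited, where the median of all genes shifted by -0.088, -0.182 and -0.126 in the 3 populations, the split was 8 up and 3 down in CD4+ but 2 up and 5 down in CD4-CD8- cells, and after TMM scaling of the TPM it was 12 up and 1 down and 10 up and 1 down.

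Among the chaperones, 8 of 11 rose in KO CD4+ cells and 4 of 11 in KO CD4-CD8- cells. Hsp90b1 encodes GRP94, the ER member of the HSP90 family, which folds Toll-like receptors and integrins (chr10:86690209-86705509). It stood at 242.7, 289.8 and 235.1 CPM in WT CD4+ libraries and at 507.9, 483.6 and 536.7 CPM in KO CD4+ libraries. The groups lay far apart, and the change was 1.99-fold (log2 0.993 ± 0.12, edgeR adjusted p 5.9e-06). The WT CD4-CD8- libraries, at 279.7, 371.9 and 291 CPM, again lay below those of KO, at 491.4, 500 and 480.7 CPM (log2 0.643 ± 0.119, edgeR adjusted p 0.000758). The CD8+ libraries ranged from 614.5 to 847 CPM for WT and from 884.5 to 960.7 CPM for KO, and this difference of 0.311 ± 0.119 did not pass (edgeR adjusted p 0.0916). KO cDC2 had a level between those of WT cDC2 and WT CD8+ cells.

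Calr and Canx encode calreticulin and calnexin, the lectin chaperones that bind newly glycosylated proteins. Calr was 659.1, 815.9 and 622.8 CPM in WT CD4+ and 1056, 1110 and 1039 CPM in KO CD4+ libraries, and 698.5, 823.5 and 670.8 CPM against 1118, 1164 and 1054 CPM in CD4-CD8- cells. The groups did not overlap in either population, and the log2 changes were close to each other, 0.611 ± 0.121 and 0.605 ± 0.121 (edgeR adjusted p 0.000797 and 0.00139). Canx changed by 0.578 ± 0.081 in CD4+ and 0.414 ± 0.081 in CD4-CD8- cells (edgeR adjusted p 2.97e-05 and 0.00113). Hyou1, an exchange factor for BiP, was 110.6, 118.4 and 95.65 CPM in WT CD4+ against 157.6, 163.3 and 157.2 CPM in KO CD4+ libraries, with the groups apart (log2 0.558 ± 0.108, edgeR adjusted p 0.000651), and rose by 0.515 ± 0.108 in CD4-CD8- cells (edgeR adjusted p 0.002). Dnajc3, Dnajb11, Manf and Creld2 rose in CD4+ cells by log2 0.307, 0.298, 0.59 and 0.583 (edgeR adjusted p 0.00859, 0.0391, 0.029 and 0.0441), and of the 6 fits that each left out 1 library these calls held in 5, 1, 3 and 1.

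BiP itself was the exception among the abundant chaperones. Hspa5 was 548.2, 677.7 and 674.2 CPM in KO CD4+ libraries, 568.2, 700.4 and 700.9 CPM in KO CD4-CD8- libraries, and 1193, 1298 and 1209 CPM in KO CD8+ libraries, each group overlapping its WT counterpart. The log2 difference between KO and WT was 0.001 in CD4+ cells (95% interval -0.221 to 0.223), 0.056 in CD4-CD8- cells (-0.166 to 0.279) and -0.039 in CD8+ cells (-0.261 to 0.182). These intervals leave out a change of the size measured for Hsp90b1 in cDC2. Dnajb9 (0.266 ± 0.108) and Sdf2l1 (0.63 ± 0.261), a pair of BiP partners, did not pass in CD4+ cells either (edgeR adjusted p 0.0681 and 0.0735), with higher estimates and, for Sdf2l1, a wide spread of 156.5 to 242.5 CPM in KO.

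All 5 protein disulfide isomerases, the enzymes that form and rearrange disulfide bonds, rose in KO CD4+ cells. Pdia4 (chr6:47796141-47813430) was 66.36, 67.48 and 59 CPM in the WT CD4+ libraries against 115.5, 116.6 and 124 CPM in those of KO. The 2 groups lay far apart at a change of 1.85-fold (log2 0.884 ± 0.116, edgeR adjusted p 1.54e-05). Pdia6 was 169.2, 203 and 158 CPM in WT against 303.9, 344 and 283.5 CPM in KO CD4+ libraries (log2 0.813 ± 0.141, edgeR adjusted p 0.000242). P4hb, the founding member of the family, had the tightest replicates, with 331.3, 345.2 and 332.1 CPM in WT against 507.9, 487.9 and 509.7 CPM in KO CD4+ libraries (log2 0.578 ± 0.069, edgeR adjusted p 5.55e-06). Pdia3, a partner of calreticulin and of MHC class I loading, rose by 0.532 ± 0.114 (edgeR adjusted p 0.00149). Pdia5 rose by 0.614 ± 0.222 from its very low level (28 to 46 counts per library in WT, 41 to 80 in KO; edgeR adjusted p 0.0412), and that call was lost when any of 3 of the 6 libraries was left out.

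In CD4-CD8- cells, 4 of 5 isomerases rose: Pdia6 by log2 0.626, P4hb by 0.485, Pdia4 by 0.463 and Pdia3 by 0.396 (edgeR adjusted p 0.00329, 7.34e-05, 0.00689 and 0.0164). The Pdia3 call was lost in 4 of 6 fits that each left out 1 library. Pdia5, at 0.375 ± 0.151, did not pass. In CD8+ cells 0 of 5 isomerases and 0 of 11 chaperones were called in either direction, beside 7.03% higher and 8.66% lower of all genes. With the replicate number as a block, Hsp90b1 and Pdia3 passed as higher in KO CD8+ cells (edgeR adjusted p 0.0484 and 0.0426). The numbers did not pair the WT with the KO CD8+ libraries.

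**Figure D3:**
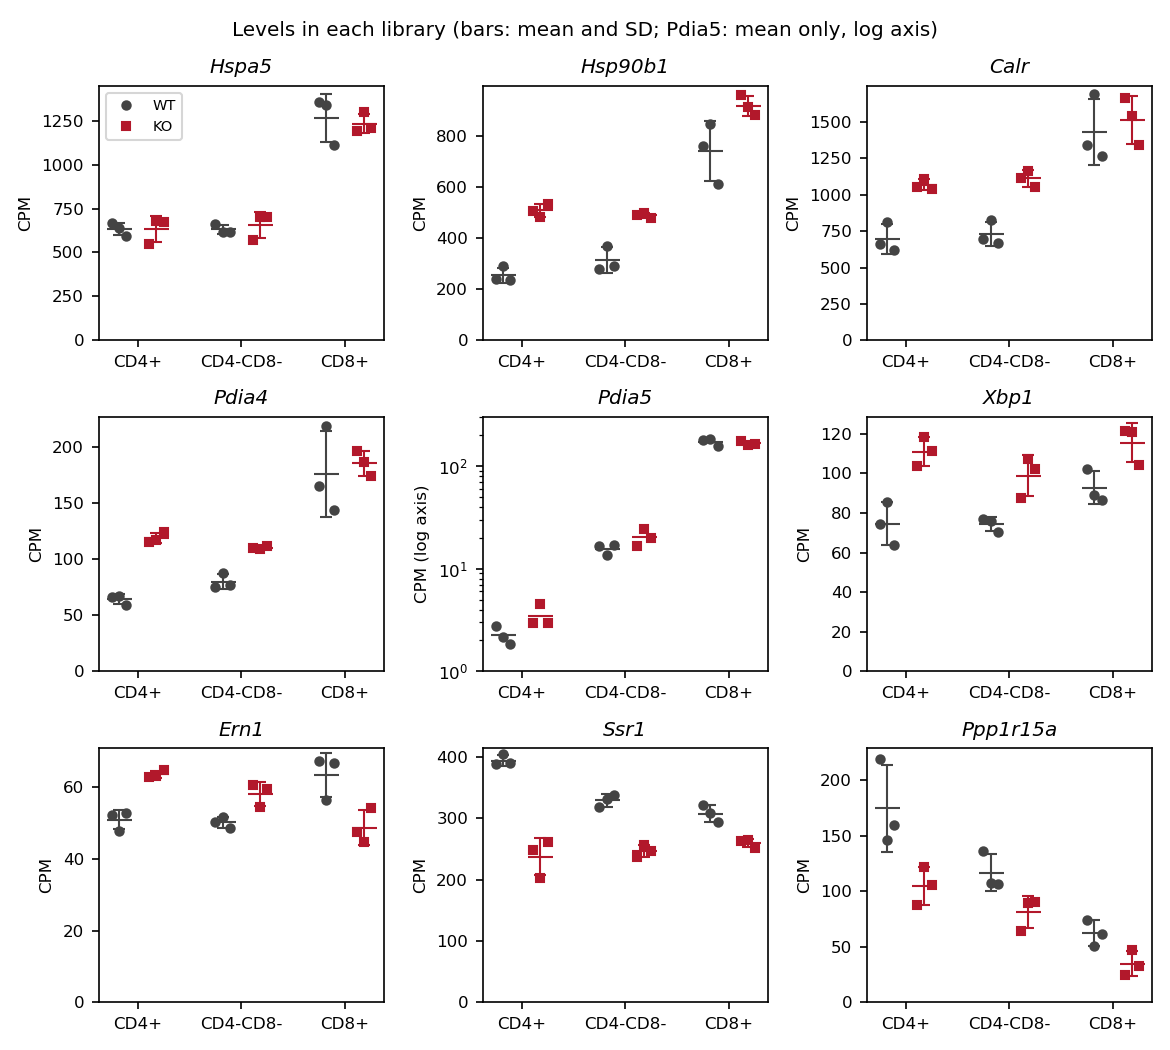
CPM of 9 members in each library by population and genotype (points: libraries; bars: mean and SD, with Pdia5 on a log axis and its mean only). Hsp90b1, Calr and Pdia4 are higher in KO than in WT cDC2 with no overlap, Hspa5 overlaps in every population, and Ssr1 and Ppp1r15a are lower in KO CD4+ libraries.

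Of the 6 sensors and transcription factors, Xbp1 and Ern1 rose in KO CD4+ cells. Xbp1 (chr11:5520659-5525893) was 74.52, 85.74 and 63.81 CPM in the WT CD4+ libraries against 103.5, 118.2 and 111.4 CPM in those of KO, with no overlap (log2 0.571 ± 0.108, edgeR adjusted p 0.000509). It rose by 0.41 ± 0.108 in CD4-CD8- cells (edgeR adjusted p 0.00967), and its difference of 0.317 ± 0.107 in CD8+ cells did not pass (edgeR adjusted p 0.0566). The stretch that IRE1 removes from Xbp1 RNA is 26 bases long and lies in the coding part of exon 4 of 5 of Xbp1-201 (chr11:5524282-5524307, plus strand, GRCm38). It is shown in capitals with 20 bases on each side, because the level of Xbp1 RNA and its splicing are separate measures.
Xbp1, IRE1 intron: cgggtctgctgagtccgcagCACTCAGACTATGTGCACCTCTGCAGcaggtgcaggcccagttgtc
Of the TPM of Xbp1, 44.054% went to Xbp1-201, whose reference sequence holds this intron, and 45.849% to Xbp1-205, whose sequence was not used here. Single-end reads divided among transcripts do not measure splicing, so no spliced share is given.

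Ern1 was the 1 member called in opposite directions in different populations. It was 52.1, 47.89 and 52.8 CPM in WT against 62.93, 63.2 and 64.71 CPM in KO CD4+ libraries, a rise of log2 0.321 ± 0.082 (edgeR adjusted p 0.00572). In CD8+ cells it was 67.3, 56.26 and 66.65 CPM in WT against 47.48, 44.57 and 54.12 CPM in KO, a fall with no overlap (log2 -0.38 ± 0.083, edgeR adjusted p 0.00429). In CD4-CD8- cells the estimate was 0.214 ± 0.083 (edgeR adjusted p 0.0692). Both calls held in each fit that left out 1 library. The order of the populations differed by genotype: Ern1 was lower in WT CD4+ than in WT CD8+ cells (-0.317 ± 0.083) and higher in KO CD4+ than in KO CD8+ cells (0.384 ± 0.083, edgeR adjusted p 0.00475 and 0.00091).

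No member of the PERK branch was called higher in KO cells. Eif2ak3 differed by log2 -0.034 ± 0.1 and Atf4 by -0.052 ± 0.119 between KO and WT CD4+ cells, and Ddit3, at 7.342 to 9.851 CPM for WT against 8.515 to 11.45 CPM for KO, by 0.231 ± 0.189. None of these passed in any population, and neither did Atf6 (-0.222 ± 0.095 in CD4+ cells, edgeR adjusted p 0.0812). Atf4 is regulated mainly through translation, which these data do not measure. Ppp1r15a fell in KO CD4+ cells from 219, 145.6 and 159.4 CPM to 87.26, 121.7 and 105.3 CPM (log2 -0.737 ± 0.214, edgeR adjusted p 0.0128). In CD8+ cells it fell from 74.33, 51.1 and 61.66 CPM to 24.91, 47.01 and 32.88 CPM (log2 -0.838 ± 0.223, edgeR adjusted p 0.0164). The groups did not overlap in either, the calls were lost in 2 of 6 and 3 of 6 fits that left out 1 library, and the CD4-CD8- difference of -0.521 ± 0.216 did not pass (edgeR adjusted p 0.0887). Trib3, at 1 to 20 counts per library, did not pass in any KO comparison.

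In ERAD, 1 of 7 members rose and 1 fell in KO CD4+ cells, no larger a share than over all genes (18.5% and 16.6%). Syvn1 (HRD1), the ubiquitin ligase of the pathway, rose by log2 0.337 ± 0.095 (edgeR adjusted p 0.0105). Herpud1, which organises the HRD1 complex, fell from 512.9, 415.5 and 445.9 CPM to 297.6, 373.5 and 400.3 CPM (log2 -0.359 ± 0.129, edgeR adjusted p 0.0392). It also fell in CD8+ cells, from 453.4, 408.8 and 438.3 CPM to 278, 355.7 and 319.5 CPM (-0.448 ± 0.129, edgeR adjusted p 0.0252), and both calls were lost in 4 of 6 fits that left out 1 library. Sel1l, the adaptor of HRD1, fell in CD8+ cells from 133.4, 132.6 and 129.1 CPM to 101.9, 114.2 and 112.5 CPM (-0.266 ± 0.073, edgeR adjusted p 0.0189), a call lost in 2 of 6 fits that left out 1 library and on TPM, and turned to 0.032 on TMM-scaled TPM. Derl2 rose in CD4-CD8- cells (0.294 ± 0.095, edgeR adjusted p 0.0312), which held in 1 of 6 fits that left out 1 library. Edem1, Derl1 and Derl3 did not pass in any population.

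The translocon members moved in both directions. Sec61a1, the channel itself, rose by log2 0.319 ± 0.075 in CD4+ and 0.386 ± 0.075 in CD4-CD8- cells (edgeR adjusted p 0.00307 and 0.00109), and Sec61b rose in CD4-CD8- cells by 0.619 ± 0.176 (edgeR adjusted p 0.0154), a call that held in 3 of 6 fits that left out 1 library. Ssr1, a subunit of the TRAP complex beside the channel (chr13:37966605-37994217), fell from 388.6, 404.9 and 390.1 CPM to 248, 203.7 and 262.2 CPM in CD4+ cells. That was the largest fall among the members called in CD4+ cells apart from Ppp1r15a, with the smallest adjusted p of all 34 (log2 -0.729 ± 0.08, edgeR adjusted p 2.16e-06). It fell from 318.5, 331.1 and 338.7 CPM to 237.8, 256.8 and 247.5 CPM in CD4-CD8- cells (-0.413 ± 0.08, edgeR adjusted p 0.00106), and by 0.246 on the log2 scale in CD8+ cells (edgeR adjusted p 0.047, lost in 5 of 6 fits that left out 1 library). The other TRAP subunits in the same cells rose: Ssr2 by 0.588, Ssr3 by 0.604 and Ssr4 by 0.749 in KO CD4+ cells (edgeR adjusted p 0.000146, 1.73e-05 and 2.63e-06).

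**Figure D4:**
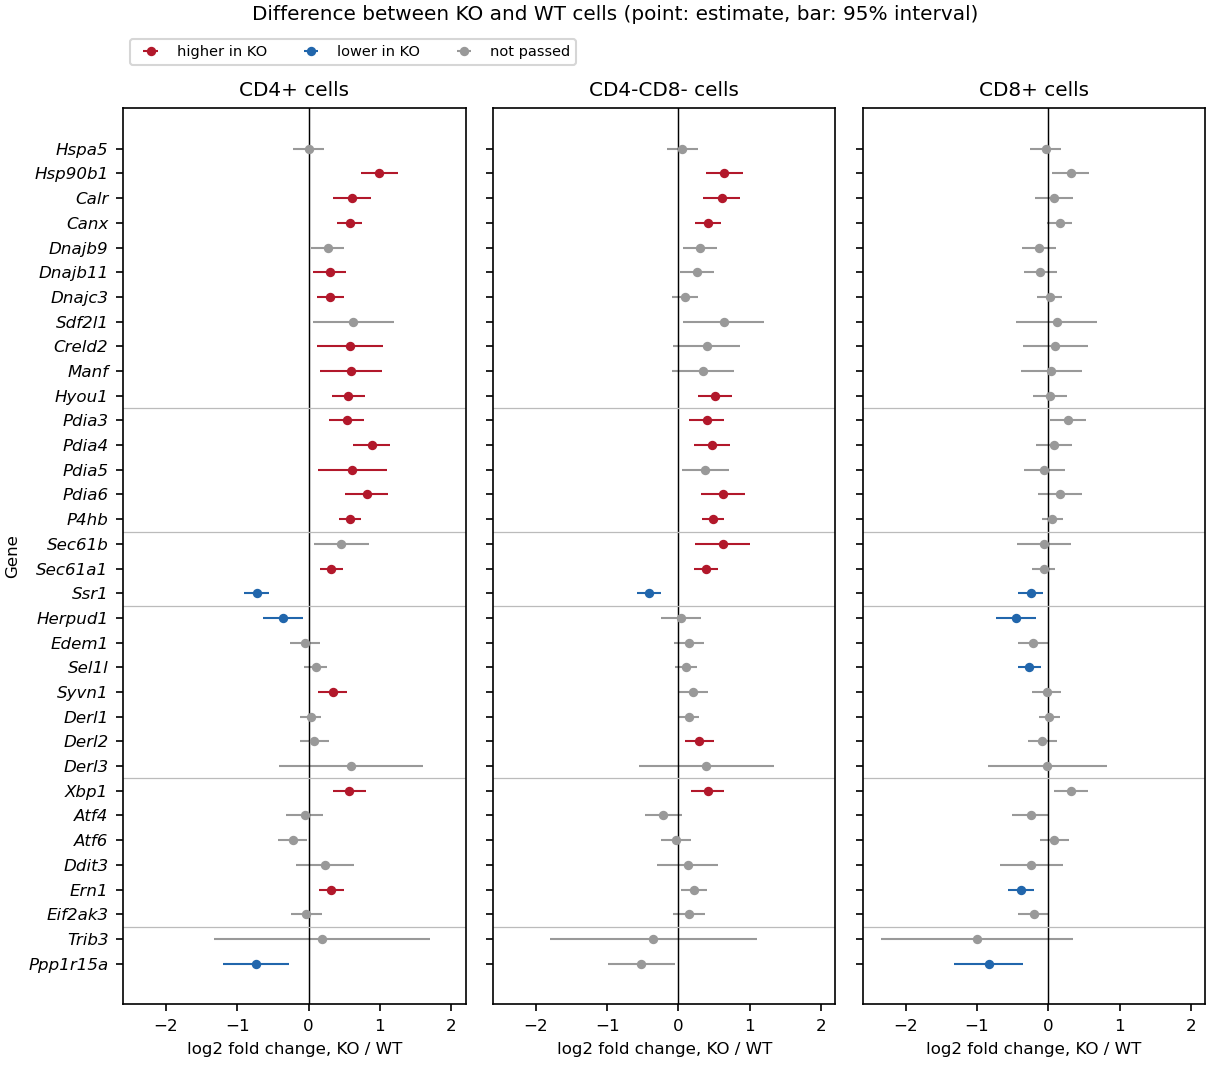
Log2 fold change between KO and WT cells for the 34 members in CD4+, CD4-CD8- and CD8+ cells (point: estimate; bar: 95% interval; line at 0: no difference). In CD4+ cells 17 members rose and 3 fell, in CD4-CD8- cells 12 rose and 1 fell, and in CD8+ cells 0 rose and 5 fell.

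The difference between the KO effects was tested itself. The effect in CD4+ cells was above that in CD8+ cells for 10 members and below it for 1 (12.6% and 9.55% of all genes), with a median difference of log2 0.404 over the members. The 10 were Pdia4 (0.808 ± 0.163), Ern1 (0.701 ± 0.117), Hsp90b1, Pdia6, Hyou1, Calr, P4hb, Canx, Sec61a1 and Sel1l, and the 1 below was Ssr1 (-0.484 ± 0.113). For Pdia4, P4hb and Ern1 this held in each of the 21 alternative analyses. The effect in CD4-CD8- cells was above that in CD8+ cells for 5 members (8.24% of all genes) and below it for 0 (4.98%), namely Ern1, Hyou1, Sec61a1, P4hb and Sel1l. At an unadjusted p under 0.05, 17 were above and 0 below, and DESeq2 called 7 above and 0 below. For CD4+ against CD4-CD8- cells, 0 members passed in either direction (2.48% and 1.27% of all genes); 1 was above and 2 below at an unadjusted p under 0.05, and DESeq2 called 0. Ssr1 (-0.316, interval -0.562 to -0.07) and Pdia4 (0.421, 0.064 to 0.777) were among these 3, with edgeR adjusted p of 0.161 and 0.209.

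Put another way, most of the 16 chaperones and isomerases stood nearer to their level in CD8+ cells in KO than in WT cDC2. In KO cells, 17 members were lower and 4 higher in CD4+ than in CD8+ cells (25.1% and 25.7% of all genes), and 17 were lower and 5 higher in CD4-CD8- than in CD8+ cells (22.3% and 24.3%). Over the 16 chaperones and isomerases, the median log2 difference of CD4+ from CD8+ cells was -1.1445 in WT and -0.6355 in KO, and it was nearer to 0 in KO for 15 of 16. For CD4-CD8- cells the medians were -1.103 and -0.719, nearer to 0 for 16 of 16. These medians restate the differences between KO effects and are no separate test. Markers of cDC1 moved in the same cells: 4 of 8 rose and 1 fell in KO CD4+ cells and 5 of 8 rose and 1 fell in KO CD4-CD8- cells. Shares are of the CD8+ mean of the same genotype, which could itself differ between genotypes. In CD4+ cells Cadm1 went from 8.9% of the CD8+ level in WT to 22.1% in KO, and Clec9a from 5.71% to 8.33%. Irf8 went from 5.34% to 6.57% there, Xcr1 from 0.459% to 0.6% and Cd8a from 0.168% to 0.317%. The level of Cd8a barely differed, at group means of 1.78 CPM in WT and 1.86 CPM in KO CD4+ cells. In CD8+ cells it was 1060 CPM in WT and 589 CPM in KO. The share of Tlr3 went the other way, from 2.25% to 1.31%, although its level did not fall. Tlr3 had group means of 5.16 CPM in WT and 5.51 CPM in KO CD4+ cells, beside 230 and 421 CPM in CD8+ cells. Batf3 had group means of 57.6 CPM in WT and 46.8 CPM in KO CD4+ cells. In CD4-CD8- cells Xcr1 went from 5.27% to 9.18%, Clec9a from 14.4% to 19.1% and Tlr3 from 10.2% to 11.4%. The group means of Tlr3 in CD4-CD8- cells were 23.3 CPM in WT and 47.9 CPM in KO. The sum of the 8 markers, most of which Wdfy4 and Irf8 supply, was 1309 to 1644 CPM in WT against 724.9 to 842.8 CPM in KO CD4+ libraries, with Wdfy4 the 1 that fell, and 1575 to 1877 CPM against 1480 to 2098 CPM in CD4-CD8- libraries. In KO CD8+ cells 1 of 8 rose and 1 fell, with sums of 8038 to 9357 CPM in WT and 9731 to 10770 CPM in KO. The part of cDC1 cells in these differences was not tested. Libraries of the same number deviated together between each KO cDC2 group and the KO CD8+ group (r 0.149 to 0.262), and with the number as a block Dnajb11 also passed as lower in both KO contrasts (edgeR adjusted p 0.0227 and 0.00801) and Sdf2l1 in CD4+ cells (edgeR adjusted p 0.021). Between KO CD4+ and KO CD4-CD8- cells 1 member differed, Pdia5, which was lower in CD4+ cells (log2 -2.532 ± 0.177, edgeR adjusted p 2.84e-07; 4.78% of all genes were lower and 3.16% higher). On TPM the split was 1 lower and 1 higher, and on TMM-scaled TPM that of CD4-CD8- against CD8+ KO cells was 15 lower and 2 higher.

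**Figure D5:**
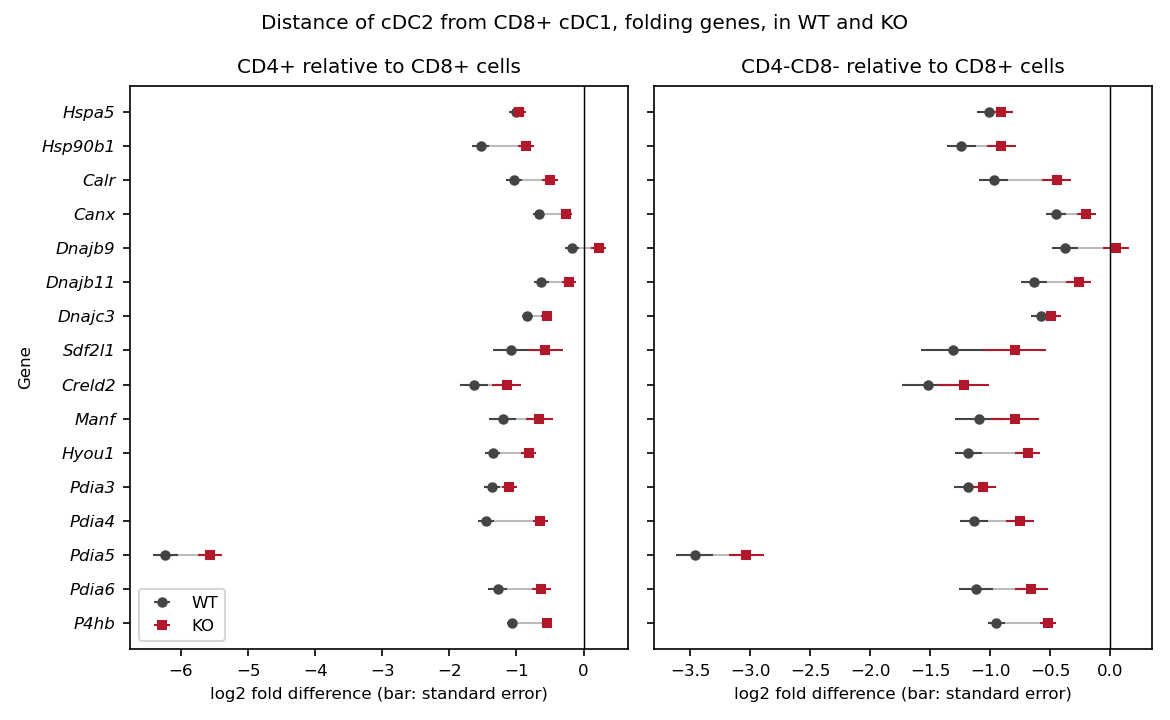
Log2 difference of CD4+ and CD4-CD8- cells from CD8+ cells of the same genotype for the 16 chaperones and isomerases (points: estimates in WT and KO; bars: standard error; line at 0: level with CD8+ cells). KO points lie nearer to 0 than WT points for 15 of 16 genes in CD4+ and 16 of 16 in CD4-CD8- cells.

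Members with an ERSE, as printed above, were compared by count with the others. Of the 9, 7 rose and 0 fell in KO CD4+ cells (median log2 0.583), 4 rose in CD4-CD8- cells and 0 were called in CD8+ cells, and 9 of 9 were lower in both WT cDC2 populations than in WT CD8+ cells. Hspa5 and Derl3 were the 2 ERSE members that did not pass in CD4+ cells. Of the 20 members with a window and no ERSE, 7 rose and 3 fell in CD4+ cells (median 0.248), 6 rose and 1 fell in CD4-CD8- cells, and 0 rose and 5 fell in CD8+ cells. Over all genes, 18.5% rose and 16.6% fell in CD4+ cells and 14.6% rose and 11.4% fell in CD4-CD8- cells. Against WT CD8+ cells, 11 of the same 20 were lower and 3 higher in WT CD4+ cells (23.0% and 22.7% of all genes). In WT CD4-CD8- cells 13 of the 20 were lower and 1 higher (21.0% and 21.9% of all genes). Of the 28 other genes with an ERSE in the window, 7 were found under the same symbol among the genes tested. Of these 7, 0 rose and 2 fell in CD4+ cells (median -0.211) and 0 rose and 2 fell in CD4-CD8- cells (median -0.283). Ero1lb, named Ero1b among the promoter windows, was missed by this match of symbols and is not among the 7. It rose in KO CD4-CD8- cells (log2 0.462 ± 0.123, edgeR adjusted p 0.0105), so these counts are incomplete. Herpud1, with ERSE-II and the ATF4-type motif, fell in CD4+ and CD8+ cells.

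Further genes of the secretory pathway were counted from lists that hold none of the 34 members unless stated. The counts stand beside 18.5% higher and 16.6% lower of all genes in CD4+, 14.6% and 11.4% in CD4-CD8- and 7.03% and 8.66% in CD8+ cells. In other ER folding genes 14 of 26 rose and 1 fell in CD4+ cells, 13 of 26 rose and 0 fell in CD4-CD8- cells, and 2 rose in CD8+ cells. The largest were the sulfhydryl oxidase Qsox1 (log2 1.002 ± 0.127), the prolyl isomerase Fkbp2 (0.907 ± 0.156) and Prkcsh of glucosidase II (0.701 ± 0.069) in CD4+ cells, with edgeR adjusted p of 1e-05, 0.000227 and 5.98e-07. In N-glycosylation 7 of 13 rose and 2 fell in CD4+ cells, led by the oligosaccharyltransferase subunits Tusc3 (0.925 ± 0.116), Rpn1 (0.839 ± 0.091) and Krtcap2 (0.819 ± 0.117) and by Dpagt1 (0.893 ± 0.104), the first enzyme of the sugar chain. Tusc3 was the 1 gene of this list that rose in CD8+ cells (0.708 ± 0.115, edgeR adjusted p 0.000357). In translocation and signal processing 8 of 21 rose and 1 fell in CD4+ cells, and in ER to Golgi traffic 8 of 21 rose and 4 fell, among them the cargo receptor Lman1 (0.741 ± 0.073) and the COPII exchange factor Preb (-0.642 ± 0.075). Other ERAD genes split, with 5 of 21 up and 4 down, shares near those of all genes. The median over these lists in CD4+ cells was 0.264, 0.331, 0.105, 0.118 and -0.095, beside 0.016 over all genes.

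Targets of PERK and ATF4 were called in both directions. In CD4+ cells 6 of 22 rose and 5 fell (18.5% and 16.6% of all genes), in CD4-CD8- cells 1 rose and 5 fell (14.6% and 11.4%), and in CD8+ cells 0 rose and 4 fell (7.03% and 8.66%). Ddit4 and Sesn2, both inhibitors of mTORC1 signalling, fell in all 3 populations: Ddit4 by log2 -1.72 ± 0.177, -1.22 ± 0.173 and -2.455 ± 0.224, and Sesn2 by -1.112 ± 0.12, -0.681 ± 0.122 and -0.44 ± 0.126 in CD4+, CD4-CD8- and CD8+ cells. Nupr1 rose in CD4+ (1.896 ± 0.364) and CD4-CD8- cells (1.215 ± 0.356). Cebpb, a myeloid transcription factor that also stands in this list, rose in CD4+ cells (1.336 ± 0.461). Its KO CD4+ libraries spread widely, at 26.69 ± 21.8 CPM (mean and SD) against 10.54 ± 4.1 CPM in WT. RNAs reported as cut by IRE1 itself were called higher in 6 of 11 and lower in 2 cases in CD4+ cells; the list holds the member Pdia4 and shares Rpn1 with N-glycosylation, and was led by Galnt10 (1.258 ± 0.084, edgeR adjusted p 8.11e-09). Cytosolic heat shock genes had 0 of 10 up and 1 down in CD4+, 2 up in CD4-CD8- and 0 called in CD8+ cells.

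Markers of other cells changed in the same KO groups. The counts stand beside 18.5% higher and 16.6% lower of all genes in CD4+ and 14.6% and 11.4% in CD4-CD8- cells. Red pulp macrophage markers summed to 210.1 to 252.1 CPM in WT against 1016 to 1194 CPM in KO CD4+ libraries, where 10 of 12 rose and 1 fell, and to 153.4 to 236.8 CPM and 485.5 to 571.4 CPM in CD4-CD8- cells. Monocyte markers summed to 3405 to 4473 CPM and 11960 to 15990 CPM in CD4+ cells, where 5 of 9 rose and 3 fell, with Lyz2 at group means of 1840 and 11800 CPM, and to 3255 to 3416 CPM and 8181 to 11490 CPM in CD4-CD8- cells. NK and T cell markers fell in CD4-CD8- cells (14 of 14), from sums of 378.7 to 849.4 CPM to 34.84 to 102.8 CPM. They summed to 6.392 to 8.824 CPM in WT CD4+ and 13.3 to 85.1 CPM in WT CD8+ libraries. The part of NK and T cells in the WT contrasts was not tested. Plasmacytoid dendritic cell markers summed to 248.5 to 301 CPM in WT against 330.4 to 432 CPM in KO CD4+ libraries. They summed to 235.4 to 329.5 CPM and 398.7 to 501 CPM in CD4-CD8- cells. In CD8+ cells the sums were 362.4 to 493.3 CPM and 246.8 to 310.9 CPM. Of these, Siglech had means of 39.6 and 43.2 CPM in CD4+ and 21.2 and 20.6 CPM in CD4-CD8- cells. B cell markers summed to 50.78 to 55.07 CPM and 70.23 to 102.6 CPM in CD4+ cells and overlapped in CD4-CD8- cells. The part of these cell types in the folding gene changes was not tested. Plasma cells hold much ER. Of their markers, Tnfrsf17 was at most 0.0232 CPM, Jchain 1.02 to 5.5 CPM and Igkc 5.14 to 21.6 CPM in group means. Markers other than ER genes summed to 27.45 to 29.01 CPM in WT against 22.28 to 40.99 CPM in KO CD4+ libraries. Of these, 0 of 8 were called, beside 18.5% higher and 16.6% lower of all genes. In CD4-CD8- cells the sums were 42.48 to 59.15 CPM in WT and 22.3 to 32.3 CPM in KO. The part of plasma cells in the folding gene changes was not tested.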

How the data were processed

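Poly(A) RNA of sorted splenic cDC was sequenced in 18 libraries, 6 groups of 3. Salmon 0.14.1 and FastQC 0.11.8 were used with the build GRCm38, per the submitters' processing notes; the annotation is not given in the sources used here. The authors deposited estimated counts for 117135 transcripts and TPM for 84086 transcripts, per the file headers; the 33049 transcripts in the first table alone were 0 in every library. Transcripts were summed per gene identifier (24578 genes), for the members over all identifiers of a name, and counts were rounded. Transcripts without a gene (152, at most 0.16979% of a library's counts) stayed out. GENCODE M21 held 98.7798% of the identifiers and gave positions.

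The model of edgeR 4.0.16 (R 4.3.3) was fitted to all 18 libraries with 1 mean per group, after filterByExpr (13366 genes) and TMM scaling, with 12 residual degrees of freedom. The quasi-likelihood F test was two-sided, with Benjamini-Hochberg adjustment over all genes and a threshold of 0.05. "Rose" and "fell" mean called genes. SE come from the F statistic, and CPM use TMM-scaled library sizes. TPM served to compare genes per length. Canx and Ddit3 are left out of that use, since short transcripts took 73.784% and 93.101% of their TPM. Alternatives were the size factors of DESeq2, DESeq2 1.42.0, no filter, the replicate number as a block, limma 3.58.1 on log2(TPM + 1), on log2(TPM + 0.1) and on TMM-scaled TPM, only the groups compared, and each library left out in turn; leaving out all 3 WT libraries numbered 3 was added after the data were seen. Scripts were tested on simulated data.

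The members and lists were chosen with earlier results of these data known. All 34 members are reported, and from each list of pathway genes up to 4 called genes per comparison with the largest change and at least 5 CPM in the higher group. Numbers 1 to 3 were taken to pair libraries where each of 3 same-number correlations of deviations was over 0.1: KO CD4-CD8- with KO CD8+ (0.22 to 0.262) and KO CD4+ with KO CD8+ (0.149 to 0.18). Over both genotypes, the 18 same-number pairs within a genotype had r of 0.054 to 0.262, against -0.176 to 0.07 for different numbers. WT populations may therefore be paired too. The main fit held no block, so KO and WT contrasts alike were tested as unpaired. The block alternative gave each number an effect shared by both genotypes, although the numbers did not pair the WT with the KO CD8+ libraries. With the block, the WT contrasts gave 27 (CD4+ against CD8+), 28 (CD4-CD8- against CD8+) and 4 members (between cDC2), in place of 27, 27 and 4. For the 18 same-group pairs of libraries the chi-square per gene was 9.26 to 31.6, so no library was a copy of another. Salmon's division of reads among similar transcripts affects low genes, and strand use is not given in the sources used here.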

Additional observations from a re-analysis of the deposited data

Results flagged for a closer look

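For 11 members the KO effect differed between CD4+ and CD8+ cells by edgeR's test of the difference itself. Of these, 10 were more positive in CD4+ cells. On the log2 scale the difference was 0.808 for Pdia4, 0.648 for Pdia6 and 0.523 for P4hb among the isomerases (edgeR adjusted p 0.00166, 0.026 and 0.000904). Among the chaperones it was 0.682 for Hsp90b1, 0.536 for Hyou1, 0.531 for Calr and 0.416 for Canx (edgeR adjusted p 0.00707, 0.0174, 0.0338 and 0.0141). It was 0.701 for the sensor Ern1, 0.367 for Sel1l of ERAD and 0.386 for the channel Sec61a1 (edgeR adjusted p 0.000328, 0.0161 and 0.0141). Ssr1 had a difference of -0.484 (edgeR adjusted p 0.00499), since it fell in both populations and more in CD4+ cells.

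For 5 members the KO effect also differed between CD4-CD8- and CD8+ cells: Ern1 by 0.593, Hyou1 by 0.492, Sec61a1 by 0.453, P4hb by 0.431 and Sel1l by 0.373 (edgeR adjusted p 0.00278, 0.0424, 0.00895, 0.00745 and 0.0234). Ern1 rose in CD4+ cells and fell in CD8+ cells. Sel1l turned to -0.238 on log2(TPM + 1), -0.256 on log2(TPM + 0.1) and -0.169 on TMM-scaled TPM in this comparison. Groups of 3 libraries were not searched for single outlying samples.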

How the results depend on the processing

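Of 195 recomputed counts of called members, 163 stayed within 1.5 times the value in the report and 32 moved. The size factors of DESeq2 moved none. Without the filter, KO against WT gave 3 in CD8+ cells, and the difference of KO effects between CD4-CD8- and CD8+ cells gave 2. DESeq2 gave 7 between the WT cDC2 populations. With the replicate number as a block, the latter difference of KO effects gave 9; the other block counts stayed within 1.5 times, although KO against WT in CD8+ cells, where the numbers did not pair (r -0.046 to -0.028), then gave 3 up (Hsp90b1, Pdia3 and Xbp1, edgeR adjusted p 0.0484, 0.0426 and 0.0363) and 4 down in place of 0 and 5, and in the KO contrasts with CD8+ cells, where the pairing held, Dnajb11 and Sdf2l1 were the calls gained. On log2(TPM + 1) and log2(TPM + 0.1) alike, KO against WT gave 11 in CD4+ and 7 in CD4-CD8- cells (3 shared with the 13), the KO cDC2 populations 2, and the difference of KO effects between CD4-CD8- and CD8+ cells 1. On TMM-scaled TPM the counts were 13 in CD4+ and 0 in CD8+ cells for KO against WT, 2 between the KO cDC2 populations, and 7 for the difference of KO effects between CD4+ and CD8+ cells. With only the groups compared, KO against WT in CD8+ cells gave 2, the WT cDC2 populations 7, and the KO effects in CD4+ against CD4-CD8- cells 1 (Pdia4). Without the 3 WT libraries numbered 3, CD8+ cells gave 1 and the WT cDC2 populations 1. The cause of these moves was not tested.

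With 1 library left out at a time, KO against WT ranged from 15 to 20 in CD4+, 10 to 13 in CD4-CD8- and 1 to 6 in CD8+ cells (2 without WT CD8+ library 1, 1 without KO CD8+ library 1). The WT contrasts with CD8+ cells ranged from 25 to 27 and 23 to 27, those in KO from 20 to 21 and 18 to 24. The WT cDC2 populations gave 1 to 3, with 1 or 2 without WT CD4+ library 1 or 3 or any WT CD4-CD8- library, and the KO cDC2 populations 1 throughout. The differences of KO effects ranged from 8 to 13 (CD4+ against CD8+), 3 to 8 (CD4-CD8- against CD8+) and 0 to 0. For the second, 3 were left without WT CD4-CD8- library 3, KO CD4-CD8- library 2 or WT CD8+ library 1, and 8 without WT CD8+ library 3.

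Of 6621 single-gene values, 6151 kept their direction and their side of the threshold, 338 lost the call, 118 gained one and 14 reversed. All 14 reversals were on TPM. In KO against WT CD4-CD8- cells, Dnajb9, Sel1l and Derl2 gave -0.525, -0.398 and -0.012 at a pseudocount of 1 and -0.553, -0.426 and -0.013 at 0.1. In WT CD4-CD8- against CD8+ cells, Dnajb9 and Sel1l gave 0.167 and 0.12, and 0.177 and 0.127. Sel1l gave -0.238, -0.256 and (TMM-scaled) -0.169 for the KO effects in CD4-CD8- against CD8+ cells, and 0.032 for KO against WT CD8+ cells on TMM-scaled TPM. KO calls in CD4+ cells that held in each of the 15 alternatives were 9 of 20: Hsp90b1, Calr, Pdia3, Pdia4, Pdia6, P4hb, Xbp1, Hyou1 and Ssr1. In CD4-CD8- cells they were 3 of 13 (Calr, P4hb, Ssr1), and in CD8+ cells 0 of 5. Depth limits Trib3, Derl3 and, in CD4+ cells, Pdia5.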
